A study of Mus musculus with 3 samples.

Results

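The 10 genes described here encode 8 apolipoproteins (Apoa1, Apoa2, Apoa4, Apob, Apoc1, Apoc2, Apoe and Apom) and a pair of proteins that act with them, the microsomal triglyceride transfer protein Mttp and the enzyme Soat2, a sterol acyltransferase. They were chosen by gene name, without a threshold on any measured value, and every array probe carrying one of these names was taken. This gave 12 probes, all of which passed the filter on dim probes, for 10 of the 19667 genes tested. The gene names were picked with earlier results of these arrays known, so the members' direction as a group is a description and not independent support.

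Apolipoproteins are the protein part of lipoproteins, the particles that carry triglyceride and cholesterol in body fluids. A particle begins when Mttp loads lipid onto the growing Apob chain in the endoplasmic reticulum, Soat2 supplies cholesteryl ester for its core, and the smaller exchangeable apolipoproteins join it or form high density lipoprotein (HDL) around Apoa1. Before the liver takes over, the visceral endoderm of the mouse yolk sac makes such particles for the embryo, and mouse embryos without Apob or Mttp die with lipid defects of the yolk sac.

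RNA came from mouse embryoid bodies, floating aggregates of differentiating embryonic stem cells, on day 10 of suspension culture in low attachment plates without LIF, the cytokine that keeps mouse stem cells undifferentiated. The mutant embryoid bodies, labelled Dido3deltaCT+HADidoNT, make a Dido3 protein that lacks its C-terminal end and overexpress an HA-tagged N-terminal region, common to the Dido proteins and holding their PHD domain. They were set against a wild-type control grown in parallel. The series title asks how Dido governs self-renewal and differentiation. In all, 3 replicates per genotype, called biological in the design text, were read on 3 arrays of 1 slide, and each array paired a mutant RNA with a wild-type RNA in the other dye. Arrays 1 and 3 had the mutant RNA in Cy3, whereas array 2 had it in Cy5. The labels do not give the number of stem cell clones, a promoter for the HA-tagged protein or the cell types present.

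Dido1, the altered gene, was read by 4 probes with log2 ratios of mutant over wild type of 2.35 ± 0.40 (adjusted p = 0.0341), 3.03 ± 0.34 (adjusted p = 0.0310), -3.60 ± 0.17 (adjusted p = 0.0310) and -0.54 ± 0.93 (adjusted p = 0.494; SD, n = 3 arrays). These adjusted p-values come from limma over all probes. The probe at 3.03 was well above background on 3 mutant arrays and on 2 of the 3 wild-type arrays. Which exon each probe reads was not assigned. The log2 ratios of all genes had SDs of 0.92, 0.80 and 0.89 on arrays 1, 2 and 3, no spot was saturated, and between 64.8% and 76.0% of spots were well above background in either genotype. Having 3 arrays sets the precision of all values.

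All 10 genes had a mean log2 ratio above 0, from 1.12 for Apoc1 to 2.86 for Apob, but only Apoa4 rose in the test over all genes. The median of the 10 was 2.06, beside -0.01 over all genes tested. In the limma fit, with Benjamini-Hochberg adjustment over all genes and a threshold of 0.05, 1 of the 10 was called higher and 0 were called lower. Of all genes, 1.65% were called, 1.27% higher and 0.386% lower. At an unadjusted p under 0.05 the count was 9 of the 10, all of them higher, beside 3910 of the 19667 genes in either direction. When all kept probes were tested singly in limma, the probes of Apoa4 (adjusted p = 0.0440), Apoc2 (adjusted p = 0.0475) and Apom (adjusted p = 0.0481) passed, each close to the threshold. The share of all kept probes that passed in this fit is not given here, so these passes have no background beside them. In the test over genes, adjusted p-values of the 10 ran between 0.0492 and 0.387. Of the 10, 8 were higher in the mutant on all 3 arrays, which 22.5% of all genes were, and 6 had a log2 ratio of at least 1 on every array, which 3.1% of all genes had. In bulk RNA a change in the number of cells that make a transcript and a change in transcript per cell cannot be told apart.

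**Figure D1:**
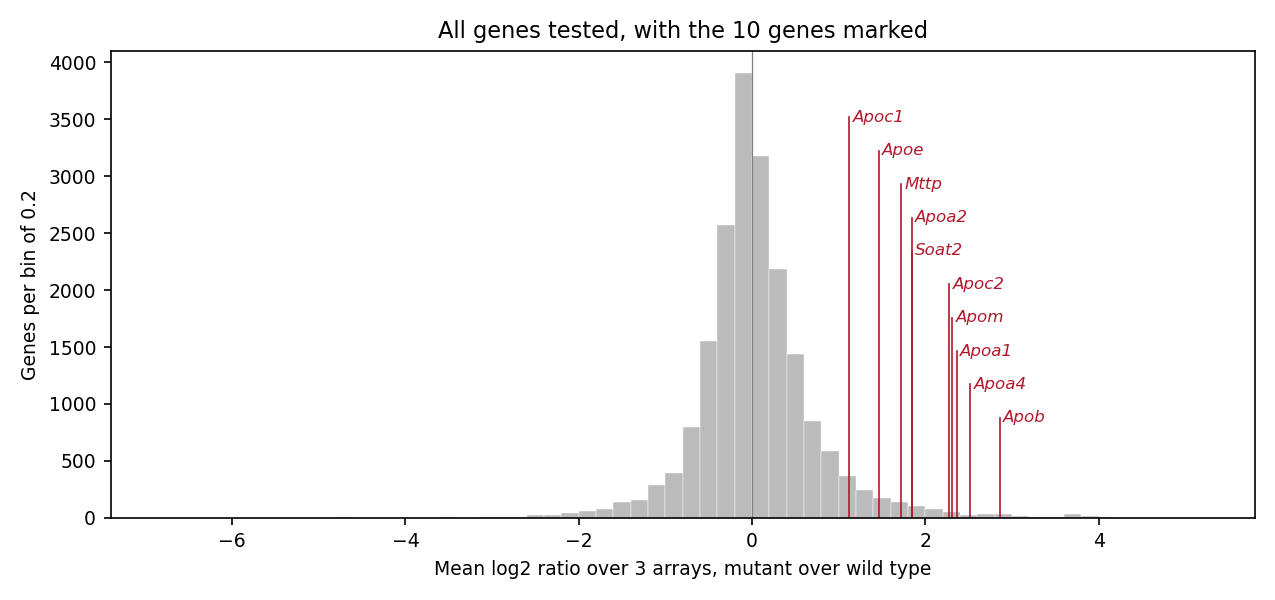
Histogram of mean log2 ratios (mutant over wild type, 3 arrays) of the 19667 genes tested, in bins of 0.2, with the number of genes per bin on the vertical axis and the 10 genes marked by red lines whose height has no meaning. The bulk of genes lies near 0, and the 10 genes lie between 1.12 and 2.86.

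Of the HDL apolipoproteins Apoa1, Apoa2, Apoa4 and Apom, Apoa4 rose in the test over genes and the other 3 did not pass. Apoa1, the main structural protein of HDL and the activator of cholesterol esterification in plasma, has its probe on chromosome 9 (chr9:46037921-46037980, plus strand, mm9). Its normalized intensity was 33423, 22175 and 14783 units on arrays 1, 2 and 3 in the mutant, against 3002, 9927 and 2705 units in wild type. Every mutant value lay above every wild-type value, and the wild-type RNA of array 2 stood apart from the other two. The log2 ratios were 3.48, 1.16 and 2.45, a mean of 2.36 ± 1.16 or 5.14-fold (SD, n = 3), which did not pass (adjusted p = 0.0844). This probe is printed 10 times on each array, and the SD among its used spots was 0.30, 0.019 and 0.024, less than the spread between arrays.

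Apoa4, an exchangeable apolipoprotein best known from intestinal and hepatic particles, lies in the same cluster, and its probe maps over 744 bases (chr9:46049661-46050404, plus strand, mm9), more than its 60 bases, so it spans a gap, as a probe over an exon junction does. Intensities were 7975, 9044 and 5174 units in the mutant, against 809, 2582 and 948 units in wild type. The lowest mutant value was above the highest wild-type value. Log2 ratios of 3.30, 1.81 and 2.45 gave a mean of 2.52 ± 0.75 or 5.73-fold, and Apoa4 rose in limma (adjusted p = 0.0492, higher on 3 of 3 arrays). Its adjusted p is close to the threshold, and without replicate 1 or without replicate 3 it did not pass, at 2.13 and 2.56. It passed in 9 of the 17 alternative settings tried.

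Apoa2, the second most abundant protein of HDL, was read by a pair of probes on chromosome 1. The brighter (chr1:173156320-173156379, plus strand, mm9) had 25298, 37562 and 8068 units in the mutant, against 2131, 21164 and 3694 units in wild type. The groups overlapped, since the wild type of array 2 was brighter than the mutant of array 3, although the mutant was higher within each array. Its log2 ratio was 3.57, 0.83 and 1.13, with a mean of 1.84 ± 1.50 (adjusted p = 0.190). The other probe, 3′ of it (chr1:173156445-173156504), had a ratio of 2.95, 0.71 and 0.75, with a mean of 1.47 ± 1.28 (adjusted p = 0.201 over all probes). The order of the arrays was the same for both probes, with array 1 highest and array 2 lowest.

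Apom, which carries sphingosine-1-phosphate on HDL, lies on chromosome 17 (probe at chr17:35267047-35267106, minus strand, mm9). It had 56769, 56506 and 25819 units in the mutant, against 6809, 11901 and 8433 units in wild type. The groups did not overlap, and the mutant of array 3 was the lowest of its group. The log2 ratios of 3.06, 2.25 and 1.61 averaged 2.31 ± 0.72 or 4.95-fold (adjusted p = 0.0528). Apom differed from Apoa1, Apoa4 and Apob in that its lowest ratio was on array 3 and not on array 2.

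The probes of Apoa1 and Apoa4 and both probes of Apob are shown because these genes had the highest mean ratios and because the Apob probes differ in ratio. They are the 60 base probe sequences of the array files, 5′ to 3′, with no part marked in capitals.
Apoa1: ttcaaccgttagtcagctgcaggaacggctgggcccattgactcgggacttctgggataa
Apoa4: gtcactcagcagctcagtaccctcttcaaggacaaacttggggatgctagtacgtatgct
Apob, brighter probe: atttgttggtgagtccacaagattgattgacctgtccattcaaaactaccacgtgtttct
Apob, dimmer probe: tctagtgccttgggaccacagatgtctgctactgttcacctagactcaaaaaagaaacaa

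Apob, the large structural protein of chylomicrons and of very low and low density lipoprotein, had the highest mean ratio of the 10 by its brighter probe. Its brighter probe (chr12:8023194-8023253, plus strand, mm9) had 75318.5, 43229 and 71377 units in the mutant, against 4247, 17955 and 8039 units in wild type. The groups did not overlap, and on array 2 the mutant was the lowest and the wild type the highest of its group. Log2 ratios of 4.15, 1.27 and 3.15 gave a mean of 2.86 ± 1.46 or 7.24-fold, which did not pass (adjusted p = 0.0863). The dimmer probe, 5′ of it in the same gene (chr12:8012697-8012756), averaged 515 ± 158 units in the mutant and 183 ± 84.6 units in wild type (SD, n = 3 each). Its log2 ratios of 2.22, 0.28 and 2.10 averaged 1.54 ± 1.09 (adjusted p = 0.151 over all probes). Both Apob probes thus had their lowest ratio on array 2, while their size differed.

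Mttp, the lipid transfer protein that loads Apob, was read on chromosome 3 (chr3:137753868-137753927, minus strand, mm9). It had 15101, 11188 and 13667 units in the mutant, against 2166, 11834 and 2552 units in wild type. The mutant values lay close together, and the wild type of array 2 was as bright as the mutant, so the groups overlapped. The log2 ratios were 2.80, -0.08 and 2.42, with a mean of 1.71 ± 1.57 (adjusted p = 0.226), and with median centring in place of loess the ratio of array 2 was 0.087.

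Soat2, which esterifies cholesterol for lipoprotein cores in enterocytes and hepatocytes, was read on chromosome 15 (chr15:101993657-101993716, plus strand, mm9). It had 7693, 9965 and 12085 units in the mutant, against 1243, 6281 and 2569 units in wild type. The groups did not overlap, though the wild type of array 2 came near the lowest mutant value. Log2 ratios of 2.63, 0.67 and 2.23 averaged 1.84 ± 1.04 or 3.59-fold (adjusted p = 0.110). Array by array, the ratio of Apob exceeded that of Mttp by 1.35, 1.35 and 0.73 and that of Soat2 by 1.52, 0.60 and 0.92. By its brighter probe Apob was thus the highest of the 3 on each array, a difference that was not tested. Its dimmer probe, at 2.22, 0.28 and 2.10, was below Soat2 on each array and below Mttp on arrays 1 and 3.

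On chromosome 7, none of the clustered members Apoc2, Apoe and Apoc1 passed in the test over genes. Apoc2, the cofactor that lipoprotein lipase needs to hydrolyse triglyceride (chr7:20257027-20257086, minus strand, mm9), had 95349, 47582 and 52619.8 units in the mutant, against 11243.5, 13324 and 13989 units in wild type. The wild-type values were close together and far below the mutant ones. The log2 ratios of 3.08, 1.84 and 1.91 averaged 2.28 ± 0.70 or 4.85-fold (adjusted p = 0.0523).

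Apoe, the ligand through which remnant particles bind the LDL receptor family (chr7:20281732-20281791, minus strand, mm9), had 130638, 79619 and 96456.5 units in the mutant, against 33350.3, 33013 and 43684 units in wild type. The groups did not overlap. The log2 ratios of 1.97, 1.27 and 1.14 averaged 1.46 ± 0.45 or 2.75-fold, with the smallest SD of the 10 (adjusted p = 0.0641). Its probe is also printed 10 times, with an SD among used spots of 0.051, 0.093 and 0.023.

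Apoc1, a small apolipoprotein that slows the uptake of remnant particles (chr7:20274831-20274890, minus strand, mm9), had 33285, 19908 and 16387 units in the mutant, against 7514, 31002 and 4517 units in wild type. The wild type of array 2 exceeded the mutant of the same array, so the groups overlapped and the ratio changed sign. The log2 ratios were 2.15, -0.64 and 1.86, with a mean of 1.12 ± 1.53 (adjusted p = 0.387). This was the lowest mean of the 10. Apoc2 exceeded its neighbour Apoc1 in log2 ratio by 0.94, 2.48 and 0.05 on arrays 1, 2 and 3, and their mean difference of 1.15 ± 1.23, which was not tested, lies within its spread over arrays.

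**Figure D2:**
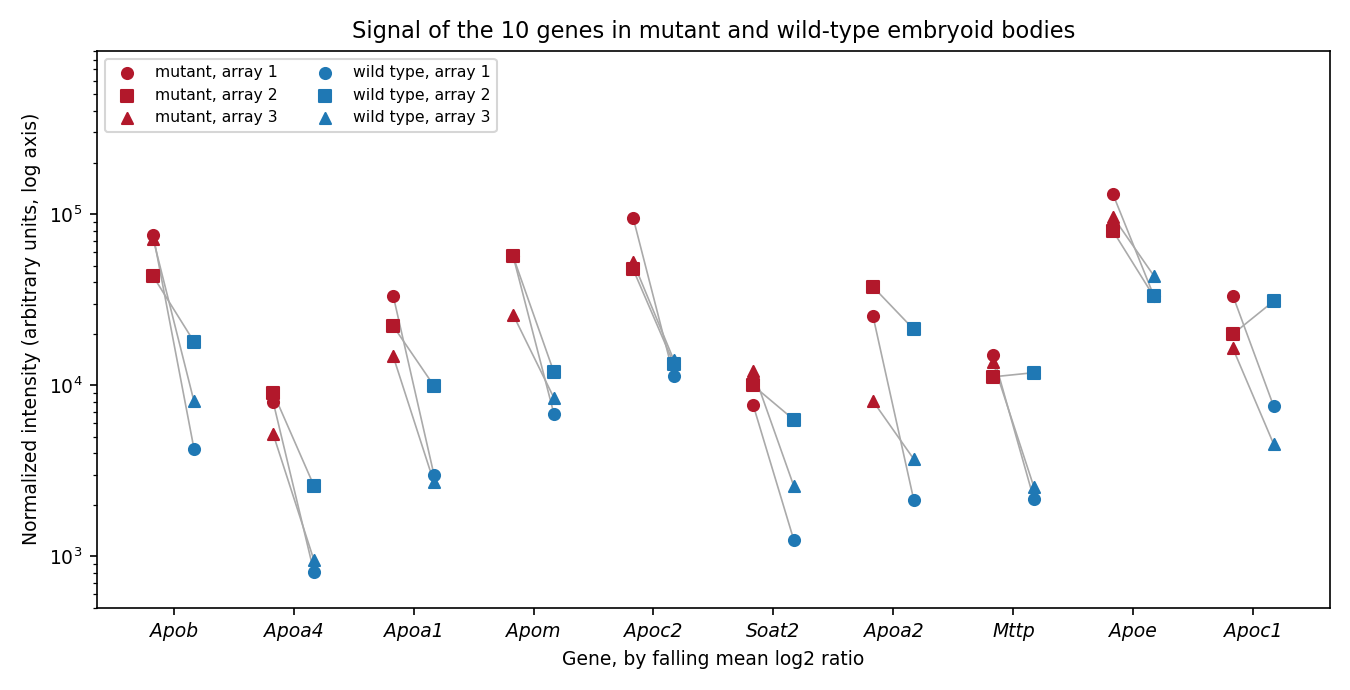
Normalized intensity (arbitrary units, log axis) of the brightest probe of each gene, mutant left in red and wild type right in blue, with a symbol for each array and a grey line joining the genotypes of an array. For Apoc1 and Mttp the line of array 2 runs upward to the wild type, at 31002 and 11834 units, and for the other 8 genes every line runs down.

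Ranked by brightness within a genotype, and each read from its brightest probe, the 10 genes lay above the middle of the kept probes in both. The percentile of the mean rank among the 25496 kept probes ran between 83.4 for Apoa4 and 99.8 for Apoe in the mutant, and between 58.7 for Apoa4 and 96.2 for Apoe in wild type. All 10 were well above background in both genotypes on all arrays. In the mutant Apob was at the 98.7th and Apoc2 at the 98.5th percentile, against 85.1 and 89.8 in wild type. The dimmer Apob probe was at 43.3 in the mutant and 23.0 in wild type. The summed intensity of the 10 was 480851, 336777 and 316437 units in the mutant, against 72515, 158983 and 91131 units in wild type. Brightness depends on the probe, so these ranks do not order the transcripts by amount.

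The arrays differed in how far the genes were apart. The median log2 ratio of the 10 was 3.07 on array 1, 1.21 on array 2 and 2.07 on array 3. Each of the 10 had its highest ratio on array 1, as did 31.5% of all genes, and 8 of them had the lowest on array 2, as did 44.4% of all genes. Of the 10, 8 were brightest in the wild-type RNA of array 2 among the wild-type RNAs (39.5% of all genes), while 2 were brightest in the mutant RNA of array 2 among the mutant RNAs (31.0%). Apoa1 in wild type was 3.48-fold brighter on array 2 than the mean of arrays 1 and 3, and Apoa2 7.27-fold. Array 2 alone carried the mutant in Cy5, so its dye orientation and its replicate cannot be told apart. Without replicate 2, 9 of the 10 were called higher in limma, beside 3047 of the 19667 genes. Without replicate 1 or without replicate 3, 0 of the 10 and 0 of all genes were called. At an unadjusted p under 0.05 were 8 of the 10 each time, beside 1659 and 2370 of all genes in either direction.

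**Figure D3:**
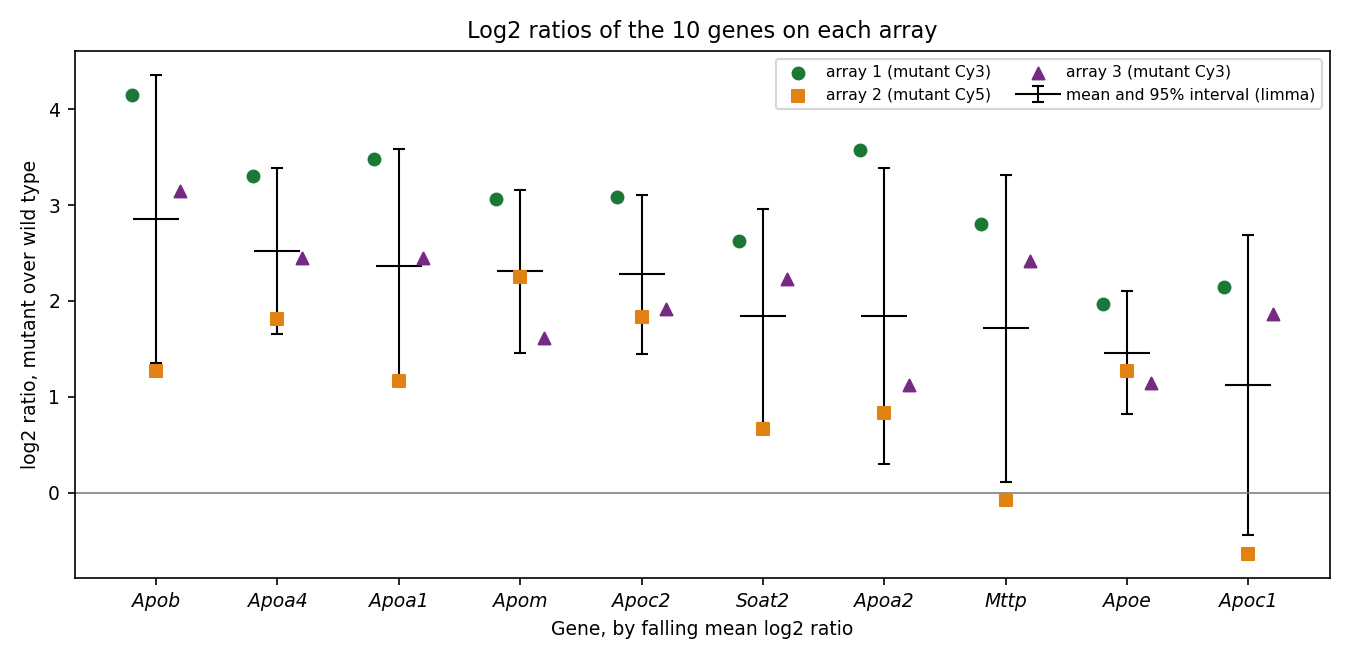
Log2 ratio of mutant over wild type for each gene on array 1, 2 and 3 (coloured symbols), with the mean and its 95% interval from limma in black. Array 1 is highest for each gene, array 2 is below 0 for Apoc1 and Mttp, and the interval of Apoc1 includes 0.

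Neighbouring genes were set beside the clustered members. On chromosome 9 the apolipoprotein genes Apoa1, Apoc3 and Apoa4 were similar. Apoc3, an inhibitor of lipoprotein lipase, had log2 ratios of 3.27, 1.14 and 2.27 and a mean of 2.22 ± 1.07 (adjusted p = 0.0823), and a second, dimmer Apoc3 probe had a mean of 0.93 ± 0.44. Apoa5, at the end of this cluster, averaged 0.08 ± 0.10 (adjusted p = 0.852) and was close to background, at 97.2 to 106 units in the mutant and 90.1 to 108 units in wild type. The flanking genes Sik3, Zpr1 and Bud13 averaged 0.86 ± 0.13, 0.03 ± 0.31 and -0.24 ± 0.53. None of them passed.

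On chromosome 7 the dim Apoc4, between Apoc2 and Apoc1, averaged 0.38 ± 0.11 (adjusted p = 0.346), at 111 to 143 units in the mutant and 84.7 to 110.0 units in wild type. The flanking genes Clptm1, Tomm40 and Nectin2 averaged -0.14 ± 0.48, 0.28 ± 0.45 and -0.75 ± 0.42. None of these passed in limma.

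**Figure D4:**
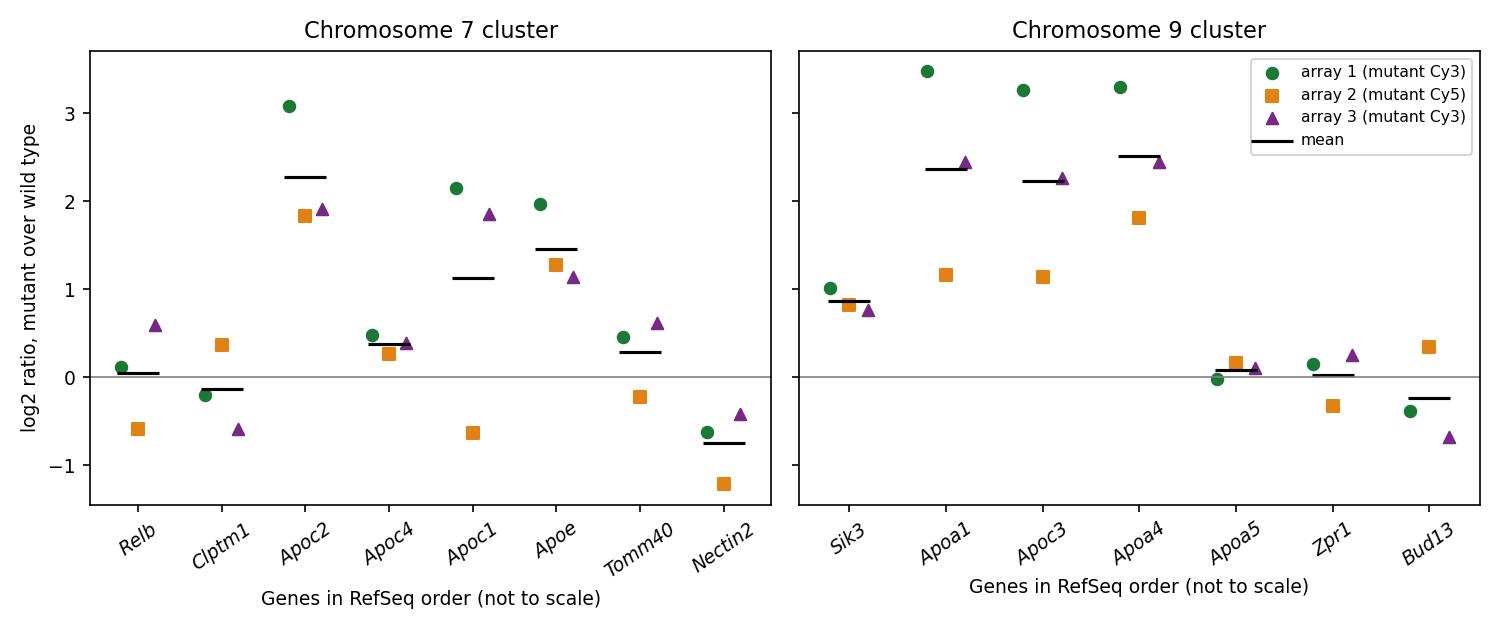
Log2 ratio of mutant over wild type for measured genes in their RefSeq order around the clusters on chromosomes 7 and 9, by array (symbols), with the mean as a bar; distances are not to scale. Apoa1, Apoc3 and Apoa4 lie above 1 on every array, and the dim Apoa5 and Apoc4 lie between -0.03 and 0.48.

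Promoter sequence was read for the genes that had an entry in the RefSeq promoter table (GRCm38.p6), which held 11 entries for 8 of the 10 genes. The 250 bases before each start were searched on both strands for 7 short motifs, and each was also counted in all 32851 entries of the table. The motifs were CAAAGT, part of the element of the nuclear receptor HNF4 (12.6% of all entries), AGGTCA, which many nuclear receptors bind (14.0%), GTTAAT of HNF1 (6.43%), TGTTTGC and TGTTTAC of forkhead factors (4.3% and 3.17%), AGATAA of GATA factors (9.99%) and TATAAA of the TATA box (12.4%). CAAAGT was in 2 of the 11 entries, in Apoa4 and Apoc2, and AGGTCA in 2, in Apoc2 and Apoa2. GTTAAT was found in Apoc2 and Apoe, TGTTTGC in Apoa1 and Apob, TGTTTAC in Apoa2, TATAAA in Apoa2, Apob and Apoe, and AGATAA in none of the 11. The matches in Apoe include an overlapping pair of TATAAA on opposite strands, and no other matches overlap. A match is a description of letters and shows no binding.

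The 4 promoters below are printed because Apoa4 and Apoc2 share CAAAGT and Apoa1 and Apob share TGTTTGC. Each is the 250 bases before the RefSeq start, 5′ to 3′ on the gene's strand, with the motif matches in capitals. They are at chr9:46240594-46240843 (plus) for Apoa4, chr7:19677942-19678191 (minus) for Apoc2, chr9:46228380-46228629 (plus) for Apoa1 and chr12:7977427-7977676 (plus) for Apob, in GRCm38.p6.
Apoa4: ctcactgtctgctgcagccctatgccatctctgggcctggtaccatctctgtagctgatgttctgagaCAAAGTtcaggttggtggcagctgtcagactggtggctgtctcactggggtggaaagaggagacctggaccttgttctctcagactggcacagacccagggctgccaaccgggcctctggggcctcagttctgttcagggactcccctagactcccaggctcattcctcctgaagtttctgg
Apoc2: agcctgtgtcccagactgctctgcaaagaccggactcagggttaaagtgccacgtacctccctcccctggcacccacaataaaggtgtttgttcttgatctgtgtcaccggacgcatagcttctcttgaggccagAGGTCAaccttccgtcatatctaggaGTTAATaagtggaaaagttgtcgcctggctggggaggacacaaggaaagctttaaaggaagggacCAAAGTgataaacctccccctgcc
Apoa1: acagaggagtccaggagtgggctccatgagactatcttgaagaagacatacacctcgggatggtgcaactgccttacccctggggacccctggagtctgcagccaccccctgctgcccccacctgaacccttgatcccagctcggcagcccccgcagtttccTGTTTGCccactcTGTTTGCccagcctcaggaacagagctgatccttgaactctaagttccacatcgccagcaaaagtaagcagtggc
Apob: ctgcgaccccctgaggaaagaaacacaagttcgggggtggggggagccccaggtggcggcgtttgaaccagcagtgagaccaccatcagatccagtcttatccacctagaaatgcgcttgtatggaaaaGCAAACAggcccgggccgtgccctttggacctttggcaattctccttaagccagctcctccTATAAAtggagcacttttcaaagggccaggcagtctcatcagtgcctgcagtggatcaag

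In Apoa4 CAAAGT lies 182 to 177 bases before the start. In Apoc2 the nuclear receptor motif lies 115 to 110, the HNF1 motif 89 to 84 and the HNF4 motif 24 to 19 bases before it. Apoa1 holds TGTTTGC at 88 to 82 and again at 75 to 69 bases, and Apob holds it on the opposite strand at 121 to 115 bases, with TATAAA at 60 to 55. These genes had mean log2 ratios from 2.28 to 2.86, and Apoa2 and Apoe, which also hold motifs, had 1.84 and 1.46. The genes without any of the 7 motifs, Apom and Mttp, had 2.31 and 1.71, within the range of those with motifs. A link between motif and ratio was not tested.

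Other genes of lipoprotein metabolism were counted in 7 lists. Their members were chosen, like the 10, with earlier results known. Over the 7 lists 9 genes were called higher and 0 lower, and the lists' medians were between 0.07 and 0.83, beside 2.06 for the 10. The background of calls is the 1.27% given above. For counts at an unadjusted p under 0.05 in limma, it is 3910 of the 19667 genes in either direction. The values that follow are mean log2 ratios with their SD over 3 arrays.

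Among the lipoprotein assembly and secretion genes, 26 of 31 were measured, 3 rose and 0 fell (6 higher and 1 lower at an unadjusted p under 0.05), with a median of 0.15. Smlr1, needed in mouse liver for lipoprotein secretion, rose by 2.85 ± 0.48 (adjusted p = 0.0354). The fatty acid binding protein genes Fabp1 and Fabp2 rose by 2.81 ± 0.77 (adjusted p = 0.0453) and 3.01 ± 0.91 (adjusted p = 0.0476). Mttp's partner P4hb was not tested, because an outlier spot removed array 3, and read 0.17 and 0.21 on arrays 1 and 2. Sar1b, Sec24d, Surf4 and Vmp1 also lacked an array for this reason.

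Of the esterification and droplet enzymes 16 of 18 were measured, 2 rose and 0 fell (5 higher and 1 lower at an unadjusted p under 0.05), with a median of 0.07. Lpin2, a phosphatidate phosphatase that makes diacylglycerol, rose by 2.78 ± 0.43 (adjusted p = 0.0354). Lipa, which rose by 1.77 ± 0.18 (adjusted p = 0.0420), is the lysosomal lipase that splits rather than makes cholesteryl ester. Mogat1, an acyltransferase, was at -1.56 ± 0.52 (adjusted p = 0.0658), and Soat1, the relative of Soat2, was at 0.03 ± 0.90.

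Of the other apolipoproteins and their relatives, 20 of 26 were measured and 0 passed in limma (5 higher and 1 lower at an unadjusted p under 0.05), with a median of 0.17. The 3 with the smallest p were Apoc3, Apol7a at 1.39 ± 1.03 (adjusted p = 0.175, other probe 0.67 ± 0.46) and Apold1 at 0.99 ± 0.17 (adjusted p = 0.0787, other probe 0.62 ± 0.11). Apold1, a gene named for a domain of the Apol family, was above background in wild type on 1 array. Of the HDL formation, remodelling and lipase genes 14 of 16 were measured and 0 passed (2 higher and 1 lower at an unadjusted p under 0.05), with a median of 0.10. Lipg, endothelial lipase, was at -0.71 ± 0.35 and was above background in the mutant on 1 array, with Anxa2 at 0.57 ± 0.09. Lmf1, a lipase chaperone, was at 0.61 ± 0.31, and its other probe at 0.00 ± 0.36.

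Of the lipoprotein receptors and adaptors 19 of 21 were measured, 1 rose and 0 fell, with a median of 0.83, and 9 were higher and 1, Lrp2 at -0.62 ± 0.27, lower at an unadjusted p under 0.05. The riser was Mylip, an E3 ligase that degrades the LDL receptor, at 1.80 ± 0.33 (adjusted p = 0.0453). Its other probe read 1.53 ± 0.56 and did not pass in limma (adjusted p = 0.0639 over all probes). Lrp6, a Wnt coreceptor, was at 1.95 ± 0.54 (adjusted p = 0.0517, other probe 0.95 ± 0.41) and the scavenger receptor Stab1 at 1.16 ± 0.32. Of the cholesterol synthesis and SREBP genes 27 of 28 were measured, 1 rose and 0 fell (5 higher and 0 lower at an unadjusted p under 0.05), with a median of 0.14. Stard4, a sterol carrier and no enzyme of synthesis, rose 8.03-fold (log2 SD 0.49, adjusted p = 0.0354), and its second probe read 1.26 ± 0.52 (adjusted p = 0.0842 over all probes).

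Of the transcription regulators of apolipoprotein genes 29 of 32 were measured, 2 rose and 0 fell (11 higher and 2 lower at an unadjusted p under 0.05), with a median of 0.60. Foxa1 rose by 1.78 ± 0.34 (adjusted p = 0.0466) and the caudal homeobox gene Cdx2 by 2.14 ± 0.56 (adjusted p = 0.0481). Esrrg was at 1.35 ± 0.08 (adjusted p = 0.0503, other probe 1.26 ± 0.49). Hnf4a, a main activator of apolipoprotein genes in liver and visceral endoderm, had log2 ratios of 2.89, 0.89 and 2.46, with a mean of 2.08 ± 1.05 (adjusted p = 0.0901). Its array order was that of Apoa1 and Apob. Cdx2 had this order too, as did Esrrg by its brighter probe but not by its other one, while Foxa1 did not. Of all genes, 31.5% were highest on array 1 and 44.4% were lowest on array 2, and the share with this full order is not given here. Foxa2, Gata4 and Gata6, added after values were seen, were at 0.38 ± 0.27, 0.13 ± 0.22 and 0.32 ± 0.63. The means of the 29 measured regulators ran from -2.07 to 2.32.

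**Figure D5:**
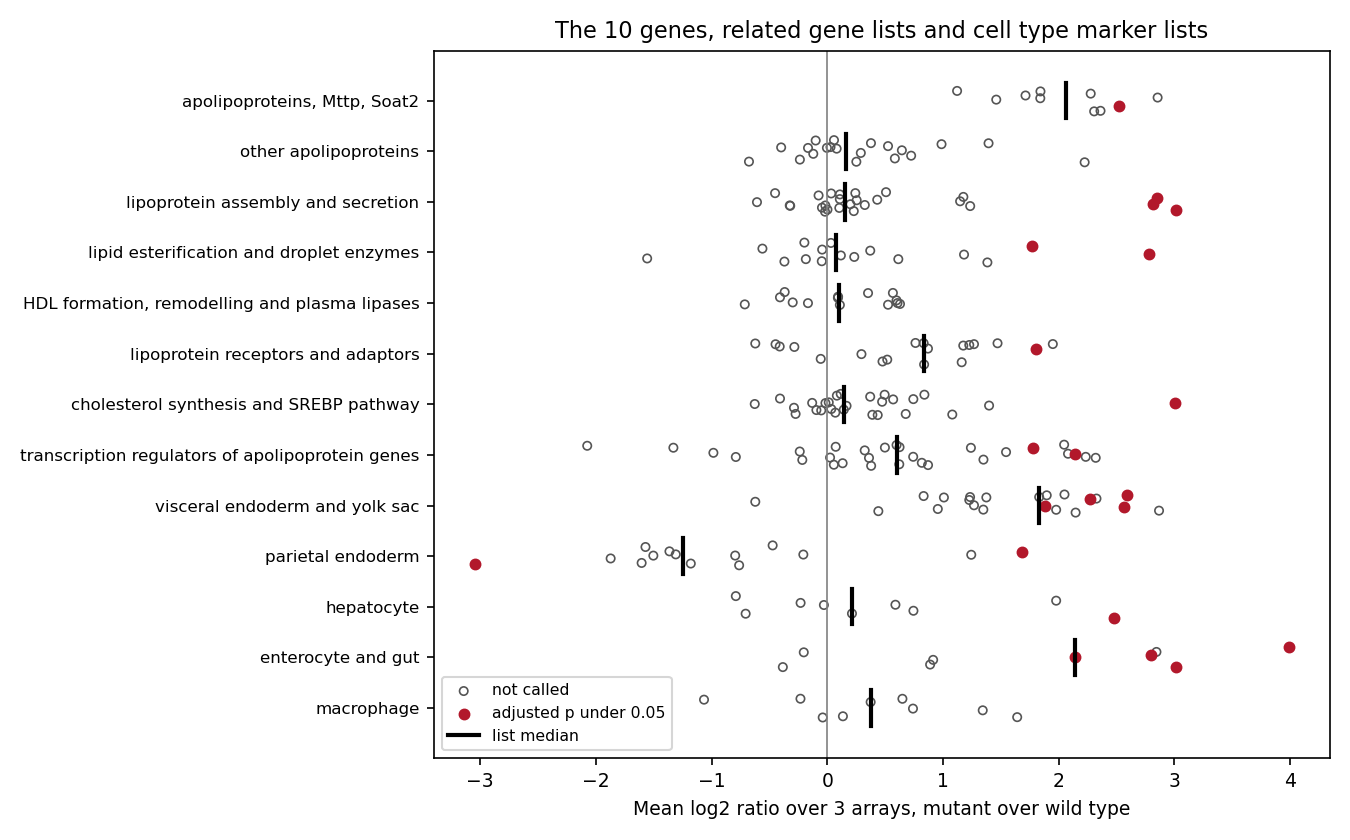
Mean log2 ratio (mutant over wild type, 3 arrays) of each measured gene in the 10-gene group, the 7 lists of lipoprotein metabolism and 5 lists of cell type markers; filled red points passed the adjusted threshold in limma and black bars are list medians. The 10-gene group has a median of 2.06, and the medians of the 7 lists of lipoprotein metabolism lie between 0.07 and 0.83.

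Markers of cell types known to make lipoproteins were counted in the same fit. For all marker lists the background of calls is 1.27% of all genes higher and 0.386% lower. At an unadjusted p under 0.05 in limma it is 3910 of the 19667 genes in either direction. Of the visceral endoderm markers, which include yolk sac products, 21 of 22 were measured, 4 rose and 0 fell, with a median of 1.83. On all 3 arrays 18 were higher and 1, the receptor gene Lrp2 at -0.62 ± 0.27, was lower, beside 22.5% and 19.1% of all genes. Their summed intensity was 573872 to 1132670 units in the mutant, against 183003 to 278337 units in wild type. Brightness depends on the probe and bright probes weigh most, so this sum and the marker sums below do not measure amounts of a cell type. Spink1 rose by 2.57 ± 0.34, the protease gene Ctsh by 1.88 ± 0.18, the thyroxine carrier Ttr by 2.59 ± 0.69 and Kdr by 2.27 ± 0.59 (adjusted p between 0.0354 and 0.0468), although Kdr, a VEGF receptor gene, has a second probe at 0.40 ± 0.78. Afp, alpha-fetoprotein, had log2 ratios of 4.33, 0.51 and 2.14 (mean 2.33 ± 1.92, adjusted p = 0.188). The part of these cells in the values of the 10 genes was not tested.

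Of the gut markers 9 of 14 were measured, 4 rose and 0 fell, with a median of 2.14. On all 3 arrays 6 were higher and 2 lower, beside 22.5% and 19.1% of all genes. Their summed intensity was 26117.5 to 37276 units in the mutant, against 3328.5 to 7414 units in wild type. The risers were Krt20 by 2.80 ± 0.45, Tff3 by 3.99 ± 1.11, and Fabp2 and Cdx2, which the lists above also hold. Sis, Alpi, Slc5a1 and Cdh17 were not well above background on all 3 arrays in either genotype and were not tested. Whether gut-like cells contribute to the values of the 10 genes was not tested.

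Of 14 hepatocyte markers 9 were measured, 1 rose and 0 fell, with a median of 0.21. On all 3 arrays 4 were higher and 2 lower, beside 22.5% and 19.1% of all genes. The riser was the heme carrier Hpx by 2.48 ± 0.34 (adjusted p = 0.0354). Their summed intensity was 3178 to 4377 units in the mutant, against 1530 to 1659 units in wild type. Alb was well above background on 1 mutant array and on 0 wild-type arrays, and Cyp7a1 on 0 of either. Tdo2, which the yolk sac list also holds, was at 1.98 ± 0.67, while Cebpa, also among the regulators, was at -0.79 ± 0.42 (adjusted p = 0.172) and Ahsg, the fetuin gene, at -0.71 ± 0.54 (adjusted p = 0.250).

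Of 14 markers of parietal endoderm, the other extraembryonic endoderm, all were measured, 1 rose and 1 fell, and the median was -1.24. On all 3 arrays 11 were lower and 2 higher, beside 19.1% and 22.5% of all genes. The thrombomodulin gene Thbd fell by 3.05 ± 0.41 (adjusted p = 0.0354), Krt19, a keratin also of other epithelia, rose by 1.69 ± 0.18 and the laminin gene Lama1 was at -1.36 ± 0.37 (adjusted p = 0.0633). The summed intensity was 248357 to 372793 units in the mutant, against 430452 to 692834 units in wild type.

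Macrophages and glia, which make Apoe in other tissues, were also read. Of 13 macrophage markers 9 were measured and 0 passed in limma (2 higher and 1 lower at an unadjusted p under 0.05), with a median of 0.38 and a summed intensity of 3364 to 8361 units in the mutant, against 2179 to 6152 units in wild type. The means of the measured macrophage markers ran from -1.06 to 1.64. On all 3 arrays 4 of them were higher and 2 lower, beside 22.5% and 19.1% of all genes. The highest was Csf1r, the macrophage growth factor receptor gene, at 1.64 ± 0.68 (adjusted p = 0.0766), and its other probes were at 0.61 ± 0.40 and 0.03 ± 0.23. Lyz2, Ptprc, C1qa and C1qc were not measured. Of 8 astrocyte and radial glia markers 5 were measured and 0 passed (1 lower at an unadjusted p under 0.05), with a median of 0.01, and Fabp7 was at -3.62 ± 2.92. The glial sums were 27382 to 70059 units in the mutant, against 31233 to 35385 units in wild type. No Gfap probe exceeded background in a mutant channel.

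Markers of 3 further cell types were counted. Of 8 cardiac muscle markers 1 rose, Tnnt2 by 3.16 ± 0.69 (adjusted p = 0.0407), and 7 were higher at an unadjusted p under 0.05. Their median was 2.54, with a summed intensity of 19223 to 103501 units in the mutant, against 8209.7 to 12848 units in wild type. Of 8 neuron markers 0 passed, 6 were lower at an unadjusted p under 0.05, and the median was -1.98, with sums of 5895 to 6569.9 units in the mutant, against 3920.04 to 31274 units in wild type. Of 9 markers of pluripotent cells 0 passed, 1 was lower at an unadjusted p under 0.05 and the median was -0.64, with array medians of -1.94, -2.00 and 0.87 and sums of 16009.9 to 86525 units in the mutant, against 43987 to 64479 units in wild type. The part of these cell types in the 10 genes' values was not tested.

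Among all other genes with an official symbol, the 5 whose 3 log2 ratios lay closest to the median profile of the 10 (3.07, 1.21 and 2.07) were taken by Euclidean distance over the 3 arrays. They were Gc, the vitamin D binding protein gene, at 2.95, 1.27 and 2.08 (distance 0.135), Timd2, a ferritin receptor gene in mouse, at 3.13, 1.17 and 2.22 (0.164), Gdf6, a BMP family ligand gene, at 3.05, 1.02 and 1.94 (0.234), Apoc3 (0.287) and Abcc2, an organic anion exporter gene, at 2.95, 1.48 and 2.05 (0.296). The nearest of the 10 to their own median was Apoa1 at 0.556, with 18 other genes closer to it, and the farthest was Apoc1 at 2.08, with 941 closer. With 3 arrays such nearness describes these values and nothing more.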

How the data were processed

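Per the file headers, Agilent's Feature Extraction (version 10.7.3.1) produced the scanner files, which hold spot and local background intensity and a log10 ratio of red over green, already background-corrected and dye-normalized by that software. Log2 ratios are in the value table the authors deposited; limma appears in the submitters' processing notes, and its further steps are not given. The slopes of these deposited ratios on the scanner ratios, turned to mutant over wild type, were 0.910, 0.932 and 0.974 over 10742 bright spots. Their medians of -0.01, 0.02 and -0.01 lie near 0, and how they were centred and background-corrected is not stated.

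Per the labels' protocols, 1 ug of total RNA was amplified and 300 ng of cRNA per dye hybridised. In R 4.3.3 with limma 3.58.1, the local background was limited to 100 units (25 spots of array 2 exceed it, up to 75739), followed by normexp (offset 50) and loess within arrays, in which control spots had weight 0. Control spots and outliers were then dropped, and replicate spots were averaged. Of 39429 probes, the 25496 that exceeded background on every array in the mutant, the wild type or both were kept, and each gene was read from its brightest probe. The limma test (lmFit, eBayes) of ratios against 0 was two-sided, and p-values were adjusted by Benjamini-Hochberg over 19667 genes at a threshold of 0.05, which 325 passed. Intensities per genotype are after loess and Aquantile scaling, on a linear scale.

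Symbols came through RefSeq accessions for 27234 probes, the symbol for 3576 and a synonym for 565, and 8054 kept the file's name. Named genes are the 10, Dido1, up to 3 of smallest p in each list (1 such gene is not reported here), Afp, Ttr, Alb, Hnf4a and the 5 genes of nearest profile; other names (a list's further called or unmeasured genes, cluster neighbours, Soat1, Foxa2, Gata4 and Gata6) were added after values were seen. The members, lists and the limit of 100 units were chosen with earlier results of these data known. The fit was tested on simulated data, where it returned the mean size of the changes added but called none of them at the adjusted threshold, although most had an unadjusted p under 0.05. The settings of the simulation are not given here, so it does not measure the power of the fit on these arrays.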

Additional observations from a re-analysis of the deposited data

How the results depend on the processing

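Over 17 alternative settings, the mean ratio of each of the 10 genes stayed above 0 in all 170 combinations of gene and setting, and 37 of them changed side of the adjusted threshold. The median of the 10 ranged between 1.63 and 2.46, and 8 to 10 were higher on every array used. The calls were far less stable than the direction. Counts are given as genes called over the whole table, of the 10, and of the 7 lists of lipoprotein metabolism, beside 325, 1 and 9. They were 1352, 6 and 25 at a threshold of 0.1. They were 2534, 8 and 27 with a dye term, where array 2 is fitted exactly and the spread is that between arrays 1 and 3. They were 605, 3 and 15 with an intensity trend, 733, 3 and 16 with an offset of 16, 769, 2 and 16 with the scanner's own ratio, and 1310, 6 and 24 with a separate-channel fit. With median centring 408, 3 and 12 were called, with a filter on both genotypes 321, 3 and 11, and with scaling between arrays 330, 1 and 9. With a background limit of 200 units they were 269, 0 and 7, with the mean of a gene's probes 258, 0 and 6, and with no background correction 226, 0 and 5, each with 9 of the 10 at an unadjusted p under 0.05. No gene passed without a background limit (3021 genes at an unadjusted p under 0.05, smallest adjusted p 0.168), with no filter (4860, 0.0589) or with the authors' deposited table (3838, 0.0599). Leaving out a replicate gave between 0 and 5082 genes, 0 and 9 of the 10, and 0 and 53 of the lists, with 0 of each without replicate 1 (1659 genes at an unadjusted p under 0.05) or replicate 3 (2370) and the highest counts without replicate 2, when both remaining arrays carry the mutant in Cy3. The cause of these moves was not tested otherwise. Each ratio is already paired, as both genotypes share an array, and the separate-channel fit above keeps the array as a random block. Apoa4 passed in 9 of the 17 settings, Apoc2 in 8, Apom in 7, Apoa1, Apob and Apoe in 3, Mttp and Soat2 in 2, Apoc1 in 1 and Apoa2 in 0. The number of arrays and the signal over background of dim probes (Apoa5, Apoc4, the second Apob probe) limit these values.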
